A study of Rattus norvegicus with 10 samples.

Results

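The iron- and 2-oxoglutarate-dependent dioxygenases were taken by gene symbol: the Kdm2 to Kdm8, Jmjd and Riox genes, Tet1, Tet2, Tet3, the Alkbh genes, Fto, the Egln genes and Hif1an, the P4ha, P3h and Plod genes, Asph, Phyh, Tmlhe and Bbox1. A probe set counted only where the platform annotation paired it with exactly 1 gene, and the probe set with the highest mean over the 10 arrays stood for a gene with several. This gave 45 genes, on 80 probe sets, of the 14217 genes that the array measured in this way. Liver RNA of 5 male Sprague-Dawley rats fed an iron-deficient diet with about 3 ppm iron for 3 days was set against liver RNA of 5 rats pair-fed the control diet with 48 ppm iron, each on its own Affymetrix rat genome array. All 10 rats were 5 weeks old by the labels, ate 1.5 h before sampling, and were labelled as biological replicates. One label field of the 5 pair-fed samples names the iron-deficient diet as well, and the groups were taken from the titles and the treatment field, which give the control diet.

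These enzymes hold a single ferrous iron, bind 2-oxoglutarate and molecular oxygen, and release succinate and carbon dioxide while they hydroxylate a substrate. In liver the Egln hydroxylases mark the HIF alpha subunits for breakdown, the P4ha, P3h and Plod enzymes modify collagen in the endoplasmic reticulum, the Kdm, Jmjd, Tet, Alkbh and Fto enzymes act mostly on chromatin, DNA and RNA, and Phyh, Tmlhe and Bbox1 serve phytanic acid breakdown and carnitine synthesis. Several of the genes, among them Egln1, Egln3, P4ha1, P4ha2, Plod2, Kdm3a and Kdm4b, are known to be induced by HIF in human and mouse cells. An array reads the mRNA of these genes and not the iron content or activity of the enzymes.

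The mRNA of the 45 genes differed little between iron-deficient and pair-fed livers. By rank products, at a false discovery rate under 0.05 over all 31042 probe sets, 0 of the 45 were higher in iron-deficient rats, where 0.288% of all genes were, and 0 were lower, where 0.746% of all genes were. The lowest false discovery rate of any member was 0.601. By limma, a linear model with moderated variances, 0 probe sets on the array had a Benjamini-Hochberg adjusted p under 0.05, although 2168 had an unadjusted p under 0.05; the lowest adjusted p among the members was 0.616. At an unadjusted limma p under 0.05, 2 members were higher, against a background of 2.90% of all genes, and 4 were lower, against 4.94%. The values of the 2 diets did not overlap for 1 member on the higher side (background 0.443%), Kdm4b, where the gap was in effect a tie, and 1 on the lower side (background 1.18%).

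Every difference was small. On the probe set that stood for each gene, the log2 fold changes of the 45 genes ran between -0.22 and 0.22. The largest was 1.17-fold, and the median was 0.01 beside -0.01 over all genes. Dimmer probe sets reached 0.23 for Alkbh1 and 0.27 for Alkbh5. Of the 45, 25 had a higher mean in iron-deficient livers (55.6%, beside 47.5% of all genes) and 20 a lower mean. An absolute log2 fold change under 0.1 was found for 25 members and under 0.2 for 41, and its median was 0.0970 over the members and 0.0687 over all genes. The 95% interval of the difference lay inside 0.5 log2 units on either side of 0, a 1.41-fold change, for 42 members (93.3%, beside 93.2% of all genes), and Egln3, Plod2 and Tmlhe were the other 3. Since whole liver was measured, fewer cells of a type and less RNA per cell cannot be told apart.

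**Figure D1:**
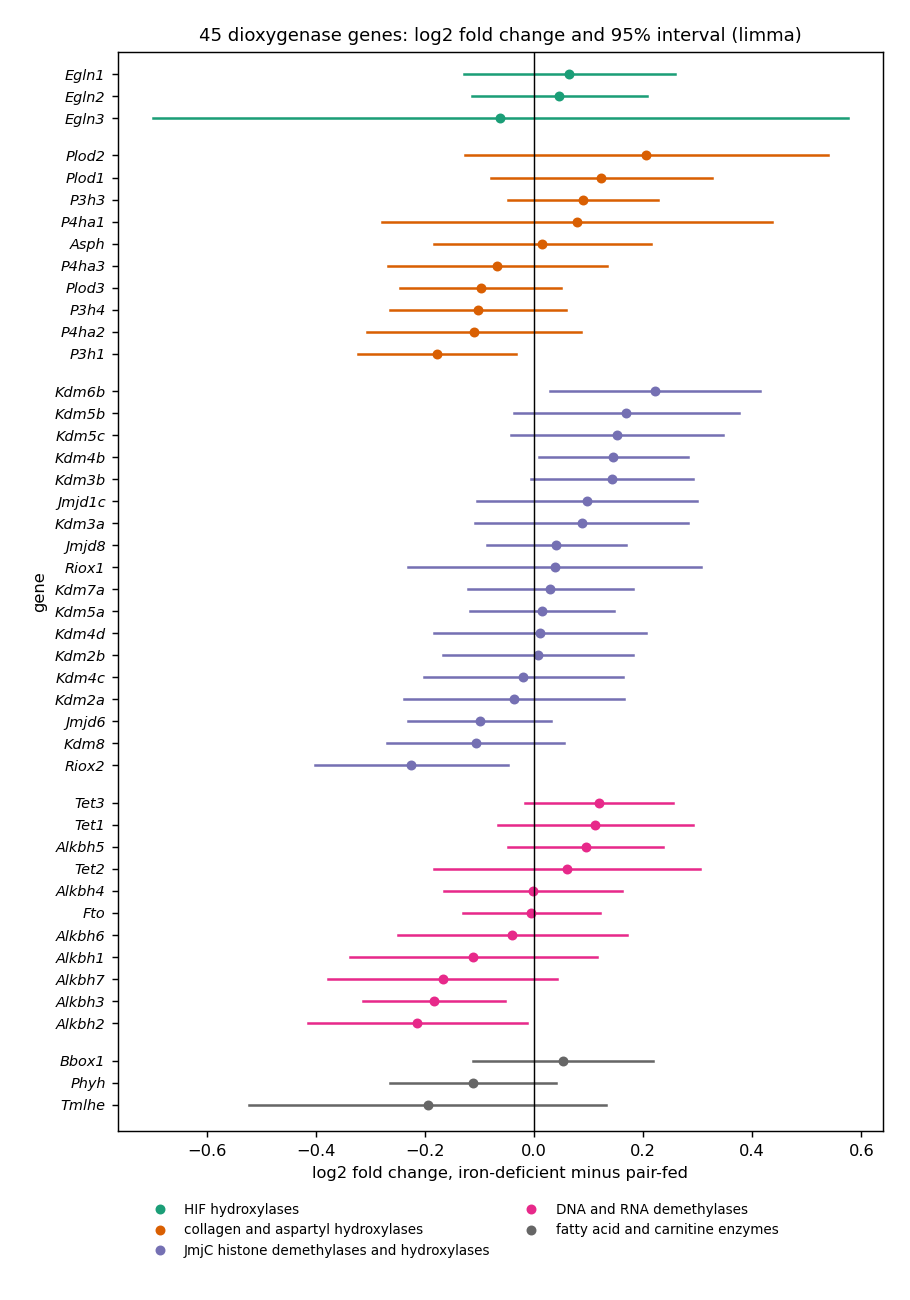
The points give the log2 fold change, iron-deficient minus pair-fed, of each of the 45 genes and the bars its 95% interval from limma, with the genes grouped by role and 0 marked by the vertical line. The points lie between -0.22 and 0.22, and the interval of Egln3, which reaches -0.70 and 0.58, is the widest.

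The array medians lay between 6.19 and 6.22 log2 units. The deposited values had been normalised across arrays, so this closeness says little about the samples. The array of iron-deficient replicate 1 stood somewhat apart. Its mean correlation with the other arrays was 0.9915, where the others had 0.9935 to 0.9941, and its 3' minus 5' differences of the GAPDH and beta-actin control probe sets, at 0.36 and 1.74 log2 units, were the highest of the 10. Hepatocyte markers marked the tissue as liver, with a list mean of 13.99 to 14.13 in iron-deficient and 14.00 to 14.15 in pair-fed rats, and 0 of 8 passed rank products or had an unadjusted limma p under 0.05. Red cell precursor markers were lower in iron-deficient rats, by a median log2 fold change of -0.67 over 9 of 12 measured, and 6 of the 9 passed rank products. Of the markers of Kupffer cells, endothelium, cholangiocytes, T and NK cells and neutrophils 0 passed rank products. Only Stab2 of endothelium, higher by 0.29, Epcam of cholangiocytes (-0.25) and Klrd1 of T and NK cells (-0.28) had an unadjusted limma p under 0.05. Among Kupffer cell markers 8 of 9 had a lower mean, with a median of -0.13. Hamp, the liver hormone hepcidin that falls when iron is scarce, averaged 6.01 in iron-deficient and 7.36 in pair-fed rats. Its log2 fold change of -1.35 passed rank products but had a limma p of 0.0706, and it was -0.55 without pair-fed replicate 4, the rat with by far the highest Hamp signal, 10.57. The part of red cell precursors in the members' values was not tested.

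The HIF hydroxylases control the oxygen response, and 3 of 4 were measured, Hif1an having no probe set used here. Egln1, the main HIF prolyl hydroxylase in most tissues, had log2 signals of 8.67, 8.43, 8.29, 8.15 and 8.28 in the iron-deficient rats and 8.37, 8.30, 8.30, 8.32 and 8.22 in the pair-fed rats. The pair-fed values lay inside the wider iron-deficient range. The difference was 0.06 (SE 0.089), with a 95% interval of -0.13 to 0.26, and a second Egln1 probe set gave -0.09.

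Egln2, a HIF prolyl hydroxylase that is not itself a classical HIF target, had 9.74, 9.70, 9.47, 9.58 and 9.62 in iron-deficient rats and 9.74, 9.63, 9.49, 9.56 and 9.46 in pair-fed rats. The groups covered almost the same range, and the difference was 0.05 (SE 0.074), or 0.02 to 0.09 with 1 array left out. Egln3, which hypoxia induces more strongly than the other 2 in many cells, scattered most between rats, with 5.09, 4.74, 4.77, 5.37 and 4.60 in iron-deficient rats and 4.51, 4.72, 4.84, 6.28 and 4.53 in pair-fed rats. A single pair-fed rat, replicate 4, carried the highest value, and 4 of 5 iron-deficient rats exceeded the pair-fed median. The log2 fold change of Egln3 was -0.06 (SE 0.293) with all rats and 0.27 without that rat (limma p 0.0963), so its direction rested on 1 animal, the same animal that had the highest Hamp. Of 9 genes for HIF subunits and the VHL ligase, which binds hydroxylated HIF, 0 passed rank products or had an unadjusted limma p under 0.05, and Rbx1, with -0.11, stood out most by limma. Of 13 HIF target genes outside the family, such as Vegfa and Slc2a1, 0 passed either threshold and 8 had a higher mean, with a median of 0.05 and Bnip3 at -0.17 having the lowest limma p (0.0502).

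The collagen and aspartyl hydroxylases split evenly, with 5 of 10 measured members higher and 5 lower and a median of -0.03, and P3h2 not measured here. P3h4, which the symbol rule takes in, is a partner protein without known enzyme activity. Besides P3h1 and Plod2, the members lay between -0.11 (P4ha2) and 0.12 (Plod1), although Plod1 was 0.05 without iron-deficient replicate 1 and P4ha2 -0.05 without iron-deficient replicate 2. P3h1, the prolyl hydroxylase that works in a complex with Crtap and Ppib on fibrillar collagen chains, was the only one with an unadjusted limma p under 0.05. Its log2 signals were 7.92, 7.80, 7.68, 7.84 and 7.84 in iron-deficient rats and 7.95, 8.11, 8.06, 7.96 and 7.90 in pair-fed rats. Every iron-deficient rat lay below the pair-fed median, although the highest of them passed the lowest pair-fed rat. The log2 fold change was -0.18 (SE 0.067), with a 95% interval of -0.32 to -0.03, a limma p of 0.0197 and an adjusted p of 0.662. Crtap had -0.10 (limma p 0.251), the lowest value of the collagen list, and Ppib 0.03 (limma p 0.647).

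Plod2, the lysyl hydroxylase that acts on the ends of collagen chains and so sets the kind of cross-link, had the highest fold change of the group. It read 7.06, 6.18, 6.46, 6.35 and 6.31 in iron-deficient rats and 6.03, 6.24, 6.49, 6.10 and 6.47 in pair-fed rats. The first iron-deficient rat stood 0.58 above every other animal and the remaining 4 lay within the pair-fed range. Plod2 thus differed by 0.21 (SE 0.153, limma p 0.202) with all rats and by 0.06 without that rat. P4ha1, a catalytic subunit of the collagen prolyl hydroxylase and named here after its values were seen, followed the same animal, with 9.12 in the first iron-deficient rat and 8.27, 8.29, 8.49 and 8.37 in the others, against 8.09, 8.68, 8.46, 8.24 and 8.67 in the pair-fed rats. Its log2 fold change was 0.08 (SE 0.165) with all rats and -0.07 without iron-deficient replicate 1. P4ha2, the other main catalytic subunit, also named after its values were seen, did not follow that animal, which had 8.03 there within an iron-deficient range of 7.71 to 8.14 and a pair-fed range of 7.86 to 8.18, and its log2 fold change was -0.11 (SE 0.090).

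Most genes of collagen, the substrate of these enzymes, had a higher mean in the iron-deficient rats. Of 21 collagen and collagen folding genes, 20 had a higher mean in iron-deficient livers (95.2%, beside 47.5% of all genes). Their median log2 fold change was 0.17 against -0.01 over all genes. An unadjusted limma p under 0.05 was found for 6, all on the higher side, against 2.90% of all genes. By rank products 0 passed. The clearest by limma was Col5a2, a fibrillar collagen chain, with 8.67, 8.96, 8.63, 8.54 and 8.63 in iron-deficient and 8.45, 8.25, 8.37, 8.43 and 8.04 in pair-fed rats. Its 2 groups did not overlap, with a log2 fold change of 0.38 (SE 0.096). Of the 21 genes, 15 were highest of all 10 rats in iron-deficient replicate 1, and without that rat the median was 0.09 and 18 were higher. Markers of stellate cells and fibroblasts, which make collagen in liver, leaned the same way: 10 of 11 had a higher mean, the median was 0.15, and the list mean ranged over 7.36 to 7.95 in iron-deficient and 7.36 to 7.61 in pair-fed rats. Of them only Lum, a collagen-binding proteoglycan, passed rank products, where it was 0.78 log2 units higher (SE 0.280) at a false discovery rate of 0.00304, and it did not pass without iron-deficient replicate 1 (0.54). The collagen and stellate lists share Col1a1 and Col3a1, and the part of stellate cell number was not tested.

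**Figure D2:**
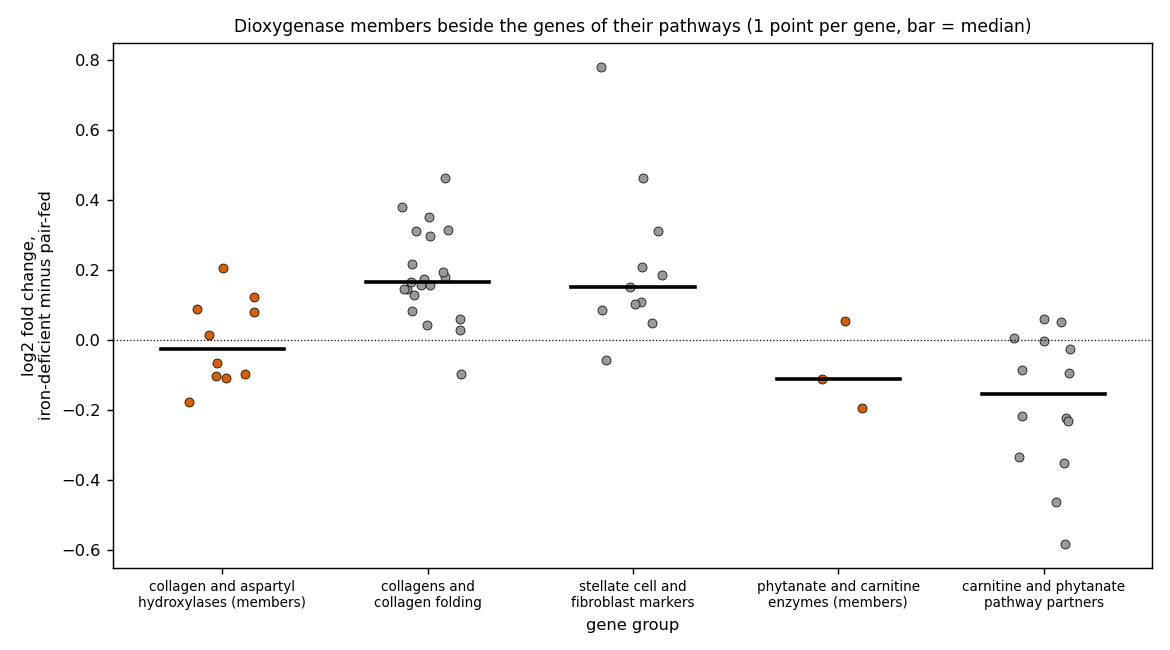
Each point is the log2 fold change, iron-deficient minus pair-fed, of 1 gene and each bar the median of its list. The collagen and aspartyl hydroxylases, which include Asph and P3h4, stand beside the collagens and the stellate cell markers. The phytanate and carnitine enzymes stand beside their pathway partners. The collagen and aspartyl hydroxylases lie around a median of -0.03 and the collagens around 0.17. The phytanate and carnitine enzymes and their partners have medians of -0.11 and -0.16.

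The 7 members known to be induced by HIF were read together because iron is needed for HIF hydroxylation. Their median log2 fold change was 0.08 and 5 of 7 had a higher mean (71.4%, beside 47.5% of all genes). By rank products 0 passed, and 1, Kdm4b, had an unadjusted limma p under 0.05. Single rats set several of these values. Plod2, P4ha1, Egln1 and Kdm3a were each highest of all 10 animals in iron-deficient replicate 1, with gaps of 0.58, 0.44, 0.24 and 0.23 log2 units to the next animal. That rat was the highest for 17.8% of all genes and for 10 of the 45 members. Without it the median of the 7 was -0.01, with 3 of 7 higher, Egln1 at -0.01 and Kdm3a, an oxygen-sensing histone demethylase named here after its values were seen, at 0.02. Of the 13 HIF targets outside the family, 2 were highest in that rat.

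**Figure D3:**
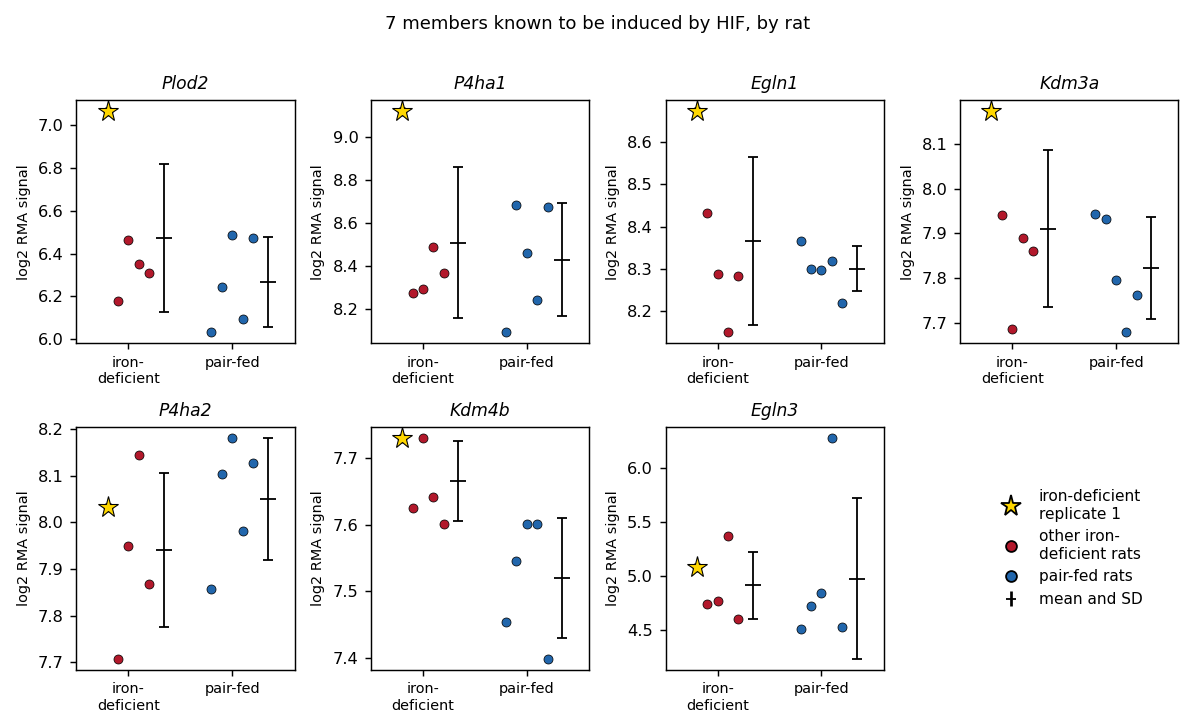
Log2 signal of the 7 members that HIF is known to induce in each rat, iron-deficient on the left and pair-fed on the right of each panel, with the mean and SD beside the points and iron-deficient replicate 1 drawn as a star. The star tops the panels of Plod2, P4ha1, Egln1 and Kdm3a, and pair-fed replicate 4 tops that of Egln3 at 6.28.

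HIF binds DNA at a short core, of which only the letters ACGTG were searched, on both strands, with CACGT as the reverse complement. They were found in the 250 bases before the gene start of Plod2, P4ha2 and Kdm4b, 3 of the 7. They were not found there for Egln1, Egln3, P4ha1 or Kdm3a. Over the family 12 of 43 genes with a RefSeq window held the letters in at least 1 of their windows (27.9%), beside 18.1% of all 27457 genes with a window. Counted by window, 12 of the family's 53 held them (22.6%), beside 16.6% of all 33469. The windows of 3 collagen hydroxylases are shown, with the matched letters in capitals, because Plod2 and P4ha1 peaked in the same rat and P4ha2 did not. All are on the plus strand of GRCr8, at chr8:101964068-101964317 for Plod2, chr10:38743644-38743893 for P4ha2 and chr20:27844796-27845045 for P4ha1.
Plod2: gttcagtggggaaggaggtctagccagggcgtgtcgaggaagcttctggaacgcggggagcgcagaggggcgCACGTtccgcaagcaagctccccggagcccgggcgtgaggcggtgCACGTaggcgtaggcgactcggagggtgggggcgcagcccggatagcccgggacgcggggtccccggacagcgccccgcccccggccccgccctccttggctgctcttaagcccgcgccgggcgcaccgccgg
P4ha2: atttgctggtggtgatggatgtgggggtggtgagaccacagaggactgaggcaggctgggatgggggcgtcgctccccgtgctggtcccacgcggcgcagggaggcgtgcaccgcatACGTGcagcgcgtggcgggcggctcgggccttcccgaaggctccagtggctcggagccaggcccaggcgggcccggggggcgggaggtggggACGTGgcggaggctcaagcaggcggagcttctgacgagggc
P4ha1: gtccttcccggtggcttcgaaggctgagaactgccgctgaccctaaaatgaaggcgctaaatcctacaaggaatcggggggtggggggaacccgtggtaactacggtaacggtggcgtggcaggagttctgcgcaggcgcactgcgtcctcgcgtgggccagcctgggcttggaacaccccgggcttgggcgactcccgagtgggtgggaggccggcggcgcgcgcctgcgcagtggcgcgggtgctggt
The matches began 178 and 133 bases before the start of Plod2 and 133 and 41 bases before that of P4ha2. Of these 3 genes, Plod2 both held ACGTG and peaked in iron-deficient replicate 1, P4ha2 held it only and P4ha1 peaked only. The 3 were picked by where they peaked, so a link between letters and peak was not tested. Other forms of the core, such as GCGTG, were not searched, and all 3 windows hold GCGTG. A match is a string of letters, not a measured binding site.

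Among the JmjC enzymes, named for the iron-binding domain they share, 18 members were measured, with a median of 0.03. Of these, 13 had a higher mean in iron-deficient livers (72.2%, beside 47.5% of all genes). An unadjusted limma p under 0.05 was found for 2 on the higher side, against 2.90% of all genes. It was found for 1 on the lower side, Riox2, against 4.94%. Kdm4a, Kdm4e, Kdm5d, Kdm6a, Jmjd4 and Jmjd7 were not measured here, and the 13 members other than Kdm6b, Kdm5b, Kdm4b, Kdm3b and Riox2 lay between -0.11 (Kdm8) and 0.15 (Kdm5c), Kdm8 being -0.06 without pair-fed replicate 5. Kdm6b, which removes the Polycomb methyl mark from histone H3, had the highest log2 fold change of the family on the probe sets that stood for genes. It read 8.44, 8.31, 8.35, 8.31 and 8.61 in iron-deficient rats and 8.17, 8.00, 8.11, 8.44 and 8.19 in pair-fed rats. All 5 iron-deficient rats lay above the pair-fed median, and only pair-fed replicate 4 overlapped them. The log2 fold change was 0.22 (SE 0.089), a 1.17-fold difference with a 95% interval of 0.03 to 0.41, a limma p of 0.0274 and an adjusted p of 0.673.

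Kdm4b, which removes a heterochromatin mark from histone H3, read 7.73, 7.63, 7.73, 7.64 and 7.60 in iron-deficient rats and 7.45, 7.55, 7.60, 7.60 and 7.40 in pair-fed rats. The groups failed to overlap by only 1.6e-05 log2 units, in effect a tie between 1 iron-deficient and 2 pair-fed rats at 7.60, and they overlapped once each array's median was subtracted. Kdm4b had a log2 fold change of 0.15 (SE 0.063, limma p 0.0392, adjusted p 0.695), and the 2 dimmer Kdm4b probe sets gave 0.05 and 0.02. Kdm5b, which removes the methyl mark of active promoters, had 0.17 (SE 0.095, limma p 0.0994), with a higher mean on all 5 of its probe sets, and it was 0.09 without pair-fed replicate 3. Kdm3b, a relative of Kdm3a, had 0.14 (SE 0.068, limma p 0.0588), and it was 0.10 without iron-deficient replicate 1.

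Riox2, a ribosomal oxygenase that hydroxylates a histidine of a ribosomal protein, had the lowest log2 fold change of the family. It read 7.98, 7.74, 7.79, 7.75 and 7.70 in iron-deficient rats and 8.18, 8.06, 7.83, 7.91 and 8.10 in pair-fed rats. Apart from replicate 1, every iron-deficient rat lay below every pair-fed rat. The log2 fold change was -0.22 (SE 0.081), with a 95% interval of -0.40 to -0.05, a limma p of 0.0166 and an adjusted p of 0.644, while a dimmer Riox2 probe set gave -0.03. Enzymes that work with or against these demethylases by other chemistry, the flavin demethylases and the methyltransferases, had 0 of 15 past rank products and 2 with an unadjusted limma p under 0.05, 1 in each direction. Kmt2a, a histone methyltransferase of active promoters, stood out most by limma with 0.25 (SE 0.073, limma p 0.00472).

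The Tet, Alkbh and Fto genes were grouped as DNA and RNA demethylases, and not all of them may act on DNA or RNA. Of the 11 measured members, 7 had a lower mean and 36.4% a higher mean, beside 47.5% of all genes. Their median was -0.01, and Alkbh8 was not measured here. Apart from the genes described next, they lay between -0.11 (Alkbh1) and 0.11 (Tet1). Alkbh1 was -0.02 without iron-deficient replicate 1, and Tet1 was 0.06 without iron-deficient replicate 4. A dimmer Alkbh1 probe set gave 0.23 (limma p 0.0963). The dimmer Alkbh5 probe sets ranged from -0.04 to 0.27 (limma p 0.0380 for the highest). Alkbh3, which repairs alkylated bases in single-stranded DNA and in RNA, was the only member whose values all lay lower in the iron-deficient rats. It read 9.51, 9.70, 9.60, 9.65 and 9.69 in iron-deficient rats and 9.84, 9.89, 9.77, 9.79 and 9.77 in pair-fed rats. The log2 fold change was -0.18 (SE 0.060), with a 95% interval of -0.31 to -0.05, a limma p of 0.00989 and an adjusted p of 0.616, the lowest in the family. Alkbh3 and Riox2 kept an unadjusted limma p under 0.05 with any 1 of the 10 arrays left out, whereas P3h1 kept it in 8 of 10, Kdm6b in 7, Kdm4b in 5 and Alkbh2 in 3.

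Alkbh2, which makes the same repair in double-stranded DNA, had 8.33, 8.07, 8.16, 8.42 and 8.23 in iron-deficient rats and 8.55, 8.54, 8.15, 8.52 and 8.52 in pair-fed rats. Pair-fed replicate 3 fell inside the iron-deficient range and the other 4 pair-fed rats lay above it. For Alkbh2 the difference was -0.21 (SE 0.092, limma p 0.0381, adjusted p 0.692). Alkbh7, a mitochondrial member, had -0.17 (SE 0.097), and -0.07 without iron-deficient replicate 1. Tet3, which oxidises methylated cytosine in DNA, had the highest log2 fold change of this group on the probe sets that stood for genes. It was 0.12 (SE 0.062, limma p 0.0802), and further Tet3 probe sets gave 0.13 and -0.03. Fto, the RNA demethylase linked to body weight, had -0.01 with a 95% interval of -0.13 to 0.12.

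**Figure D4:**
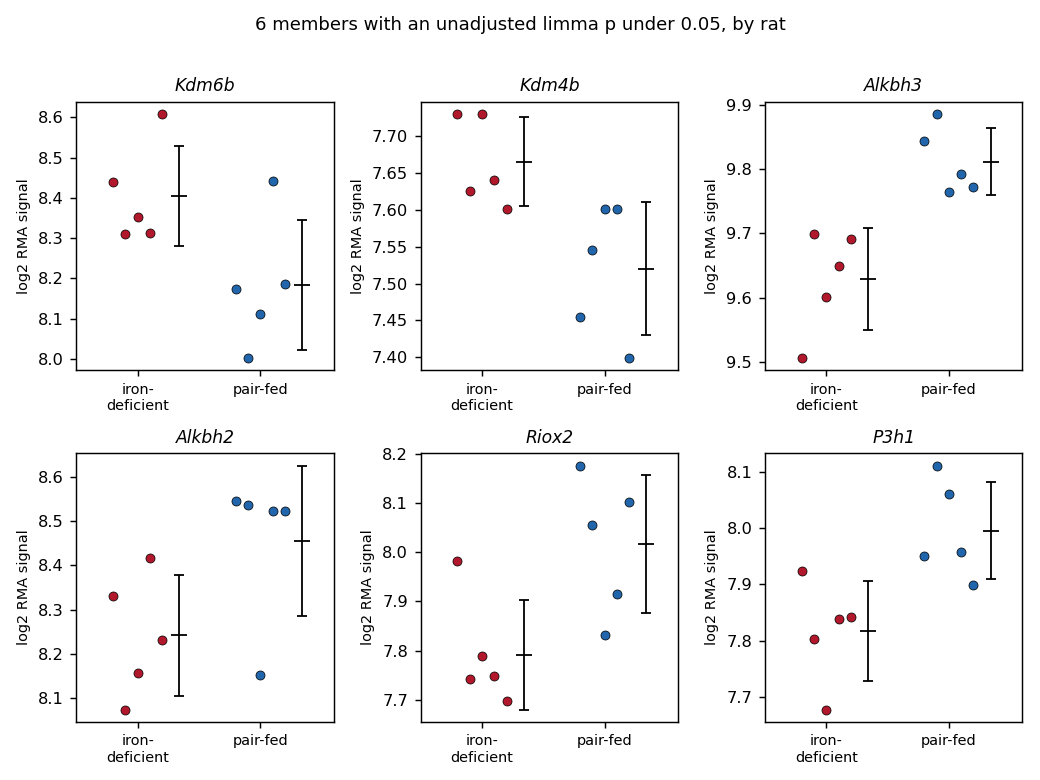
Log2 signal of the 6 members with an unadjusted limma p under 0.05 in each rat, iron-deficient on the left and pair-fed on the right of each panel, with the mean and SD beside the points. The groups separate for Alkbh3, meet in a near tie at 7.60 for Kdm4b, and overlap for Kdm6b, Alkbh2, Riox2 and P3h1.

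The fatty acid and carnitine enzymes were the group with the lowest median, -0.11, though 0 of the 3 passed rank products or had an unadjusted limma p under 0.05 and the median was -0.06 without iron-deficient replicate 5. Phyh, which hydroxylates phytanoyl-CoA in the peroxisome, had 13.90, 13.77, 13.93, 13.87 and 13.61 in iron-deficient rats and 13.96, 13.87, 13.95, 13.88 and 13.98 in pair-fed rats. All 5 iron-deficient rats lay below the pair-fed median, and the log2 fold change was -0.11 (SE 0.070, limma p 0.136), with -0.13 on the second probe set and -0.06 without iron-deficient replicate 5. Tmlhe, the entry enzyme of carnitine synthesis, had 7.90, 8.58, 8.22, 8.33 and 8.57 in iron-deficient rats and 8.10, 8.75, 8.39, 8.58 and 8.76 in pair-fed rats, a log2 fold change of -0.19 (SE 0.151, limma p 0.220) within wide scatter, and -0.09 without iron-deficient replicate 1. Bbox1, the last enzyme of that synthesis, had 11.68, 11.72, 12.03, 11.66 and 11.81 in iron-deficient rats and 11.80, 11.75, 11.72, 11.72 and 11.64 in pair-fed rats. Its log2 fold change was 0.05 (SE 0.076) and -0.09 on a second probe set, so Bbox1 had no settled direction.

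Genes that act beside these 3 enzymes included 2 that fell. Of 14 carnitine and phytanate pathway partners, 11 had a lower mean in iron-deficient livers and 21.4% a higher mean, beside 47.5% of all genes. The median was -0.16 (-0.09 without iron-deficient replicate 5). An unadjusted limma p under 0.05 was found for 5, all on the lower side, against 4.94% of all genes. By rank products Hacl1 and Crat passed on the lower side. Hacl1, which cleaves the product of Phyh, had 12.22, 11.97, 12.02, 12.60 and 11.75 in iron-deficient rats and 12.54, 12.82, 12.75, 12.38 and 12.97 in pair-fed rats, which is -0.58 on the log2 scale (SE 0.151) at a false discovery rate of 0.00891. Crat, the carnitine acetyltransferase, had 8.99, 8.45, 8.83, 8.77 and 8.23 in iron-deficient rats and 8.96, 9.16, 9.16, 8.88 and 9.41 in pair-fed rats, which is -0.46 (SE 0.141) at a false discovery rate of 0.0409. In both genes 1 iron-deficient rat reached into the pair-fed range, replicate 4 for Hacl1 and replicate 1 for Crat. Without pair-fed replicate 5 neither passed rank products, Hacl1 having -0.51 and Crat -0.39, and Crat also failed to pass without iron-deficient replicate 2 or 5 or pair-fed replicate 1, 2 or 3.

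The mRNA of 23 enzymes and carriers that make or use 2-oxoglutarate, succinate or fumarate was also read. The supply of the cosubstrate itself was not measured. By rank products 0 passed, and 0 had an unadjusted limma p under 0.05. A lower mean in iron-deficient livers was found for 18 of the 23, and a higher mean for 21.7%, beside 47.5% of all genes. The median was -0.05, with Sucla2, a subunit of succinyl-CoA synthetase, at -0.12 (limma p 0.0629). A further 15 genes listed with this family, whose symbols the rule does not reach, had a median of 0.00 with 0 past either threshold. They include Phf8 and Ogfod1, not all may be active enzymes, and Uty, at -0.12, had the lowest limma p, 0.112. Another 6 dioxygenases that hold nonheme iron but do not use 2-oxoglutarate, such as Hpd and Cdo1, had a median of -0.03 with 0 past either threshold. The spread between rats was wider in the iron-deficient group for 25 of the 45 members (55.6%) and for 65.3% of all genes, with a median SD over the members of 0.136 in iron-deficient and 0.114 in pair-fed rats.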

How the data were processed

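The authors hybridised RNA of each liver to 1 Affymetrix rat genome array and deposited log2 values after robust multiarray averaging (RMA), a step that corrects background, normalises quantiles across arrays and summarises probes. These log2 values were used as deposited. Of 31099 probe sets, 57 controls were left out. The platform annotation paired 20826 of the rest with 1 gene, 436 with several and 9780 with none, and names come from it. The study's methods name rank products and a false discovery rate under 0.05 but no further settings, and here they ran over all 25 pairings of arrays across diets with 100 permutations within arrays. Limma 3.58.1 in R 4.3.3 gave fold changes, SE, intervals and p, with diet as the only term. All fits ran over all probe sets and were tested on simulated data. Counts for lists were read per gene from these fits, with all 14217 genes as background. Depth has no meaning on arrays, and 5 arrays a group limit the precision to a median half-width of 0.182 log2 units for the members' 95% intervals.

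The members and gene lists were chosen with earlier results of these data known. A naming rule picked all HIF hydroxylases and fatty acid and carnitine enzymes, and members with an unadjusted limma p under 0.05 or groups that did not overlap. It also picked the 10 members with the largest absolute moderated t and the highest and lowest of each role. In each other list it picked up to 3 genes past rank products or else the 1 with the largest absolute moderated t. Some picked list genes are not described above, and some genes described, such as Crtap and Fto, lie outside the rule. Promoter windows are RefSeq sequences of GRCr8, cut to the 250 bases before the gene start, and no window was given for Asph and Riox2. Alternatives were subtracting each array's median, a filter on the dimmest 25% of probe sets, and averaging all probe sets of a gene. Others were limma or a rank sum in place of rank products, leaving out each array, and the replicate number as a block. The array medians were already close, so subtracting them changed the values only slightly. Same-numbered arrays did not deviate together (correlations of -0.04 to 0.09), so numbers were not taken as pairs. The labels and the study's methods differ on the hour at which feed was removed before the diets began, and the study's text gives the rats a younger age than the labels do.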

Additional observations from a re-analysis of the deposited data

Results flagged for a closer look

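Among 17 named members, tested in both diets as 34 groups of 5 rats, 2 groups held a rat far from the others, where chance gives about 1 in 20. Alkbh2 in pair-fed replicate 3 was 8.15, below the 8.52 to 8.55 of the other 4 pair-fed rats, and without it the log2 fold change of Alkbh2 was -0.29 in place of -0.21. Egln3 in pair-fed replicate 4 was 6.28, above the 4.51 to 4.84 of the other 4 pair-fed rats, and without it the log2 fold change of Egln3 was 0.27 in place of -0.06.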

How the results depend on the processing

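No member passed rank products in any setting run, and the rank sum also gave a count of 0. Limma's adjusted p gave 0 as well, but 0 probe sets on the whole array passed it. Its count of members could therefore not have been higher. With 1 array left out, the median log2 fold change of the members was 0.01 to 0.03, the members at an unadjusted limma p under 0.05 numbered 2 to 7 (2 without pair-fed replicate 2, against 6 with all arrays), and those whose groups did not overlap 2 to 4 (4 without iron-deficient replicate 1, pair-fed replicate 1 or pair-fed replicate 4, which also leaves fewer arrays to overlap). With each array's median subtracted, or with all probe sets of a gene averaged, 1 member did not overlap, Alkbh3, against 2 in the report. With that average Egln1 turned to -0.0105 and Bbox1 to -0.0190. Leaving out 1 array, Egln1 ranged between -0.0124 and 0.118, Bbox1 between -0.0089 and 0.0841 and Egln3 between -0.18 and 0.27. The other 34 of the 37 genes picked by the naming rule kept their sign in every setting. Genes described outside that rule were not followed in every setting, and some changed sign. For example, P4ha1 turned to -0.07 without iron-deficient replicate 1 and Fto to 0.02 without pair-fed replicate 2. The 2 probe sets of Alkbh1 differed in direction, at -0.11 and 0.23. In a paired fit with the replicate block, 6 members had an unadjusted limma p under 0.05, and over the 5 same-numbered pairs 0 members passed rank products while 1 partner, Hacl1, did, since Crat did not; Crat also did not pass with the dimmest 25% of probe sets left out. No other call of a named gene was lost under the block. Members dim on the array (Kdm4c, P4ha3 and Tet1 in the dimmest 25% of probe sets) are the least well measured.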
